A study of Macaca fascicularis with 6 samples.

Results

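The genes described here form the cyclic AMP brake that keeps the oocyte arrested before meiosis resumes. They were chosen by name, 10 of the 28164 genes in the count table, and all 10 were found: the receptors GPR3 and GPR12, the adenylyl cyclases ADCY3 and ADCY9, the phosphodiesterase PDE3A, the protein kinase A catalytic subunits PRKACA and PRKACB, the regulatory subunits PRKAR1A and PRKAR2A, and the anchoring protein AKAP1. The oocytes came from the cynomolgus monkey, were stripped of their surrounding cells, and were labelled wild type and untreated in all 3 groups. One group held metaphase II oocytes matured in culture (IVM MII), another metaphase II oocytes matured in the animal (IVO MII), and the third germinal vesicle oocytes (GV), each with 2 libraries. The labels do not state the animals' age, any hormone given to them, the culture conditions or how many oocytes made up a library.

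In mammalian oocytes, constitutively active receptors coupled to the stimulatory G protein drive adenylyl cyclase, and the cyclic AMP made there keeps protein kinase A active. The kinase holds CDK1 inactive by acting on WEE2 and CDC25B, and the nucleus stays in the germinal vesicle stage. Cyclic GMP from the follicle cells inhibits PDE3A. When luteinizing hormone lowers cyclic GMP, PDE3A hydrolyses cyclic AMP and meiosis resumes. In culture, removal from the follicle releases the same brake.

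RNA was measured by poly(A)-primed, full-length cDNA sequencing, and levels are given as CPM, the counts of a gene relative to the TMM-scaled total of its library. Rises and falls below are in this relative level, which does not give the amount of RNA per oocyte. Transcript amount and poly(A) tail length cannot be told apart in it. The libraries held 27707021 to 35515139 counts and 18264 to 20082 genes with a count. All 15 oocyte identity genes had counts in every library. Their summed level was 23176 to 24227 CPM in IVM MII, 18039 to 22939 CPM in IVO MII and 37974 to 46238 CPM in GV, with 2 of 15 genes higher and 7 lower in IVM MII than in GV, 4 higher and 9 lower in IVO MII than in GV, and 5 higher in IVM MII than in IVO MII. The 19 measured cumulus and granulosa markers summed to 97.2 to 106 CPM in IVM MII, 46.7 to 72.4 CPM in IVO MII and 46.7 to 49.8 CPM in GV; of the 9 tested, 3 were higher and 1 lower in IVM MII than in GV, 1 was higher and 1 lower in IVO MII than in GV, and 3 were higher in IVM MII than in IVO MII. STAR, INHA, FOXL2 and PTX3 had 0 counts in every library, while each other marker of this list had a count in some library. Of the 19, 11 had 0 counts in each IVM MII library, 6 and 8 in the IVO MII libraries, and 6 and 5 in the GV libraries. HAS2 averaged 18.7 CPM in IVM MII, 22.1 CPM in IVO MII and 4.99 CPM in GV. TNFAIP6 averaged 27.9, 13.6 and 22.0 CPM, and GREM1 29.0, 4.01 and 3.97 CPM, in the same order. The 12 theca, stroma and endothelium markers summed to 151 to 160 CPM in IVM MII, 84.1 to 87.0 CPM in IVO MII and 328 to 387 CPM in GV, with CYP17A1 and LUM at 0 everywhere. Of the 6 of these genes that were tested, 1 was higher and 2 were lower in each MII group than in GV, and 1 was higher in IVM MII than in IVO MII. The 6 blood cell markers summed to 4.38 to 13.6 CPM, with HBB and CD3E at 0; CSF1R was lower in both MII groups than in GV, and MS4A1 was higher in IVM MII than in GV. A smaller number of such cells and less RNA per cell cannot be told apart in these libraries, and the part of these markers in the results was not tested. By the test described below, 50.3% of all tested genes were called in IVM MII against GV. The shares were 58.5% in IVO MII against GV and 24.6% in IVM MII against IVO MII.

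The question the design asks is how transcript levels differ between maturation in culture, maturation in the animal and the arrested oocyte. Each gene was tested with edgeR's quasi-likelihood F test over the whole table, and every adjusted p below is that test's two-sided p after Benjamini-Hochberg adjustment over the 15815 genes tested, called at 0.05. Of the 10 genes, 9 passed the filter on low counts, and PRKACA did not. Against GV, 4 of the 9 were called in IVM MII, 3 higher and 1 lower, where 50.3% of all tested genes were called, 25.6% higher and 24.7% lower. In IVO MII, 6 of the 9 were called against GV, 4 higher and 2 lower, where 58.5% of all tested genes were called, 28.1% higher and 30.5% lower. Between IVM MII and IVO MII, 1 of the 9 was called, and it was higher in IVM MII, where 24.6% of all tested genes were called, 14.3% higher and 10.3% lower. The share called among the 9 was thus 44.4%, 66.7% and 11.1%, the first lying below, the second above and the third below the share of all genes. The median log2 fold change of the 9 was 0.76 in IVM MII against GV, 0.96 in IVO MII against GV and 0.06 in IVM MII against IVO MII, beside 0.06, -0.07 and 0.02 for all tested genes. The comparisons with GV share the same 2 GV libraries.

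**Figure D1:**
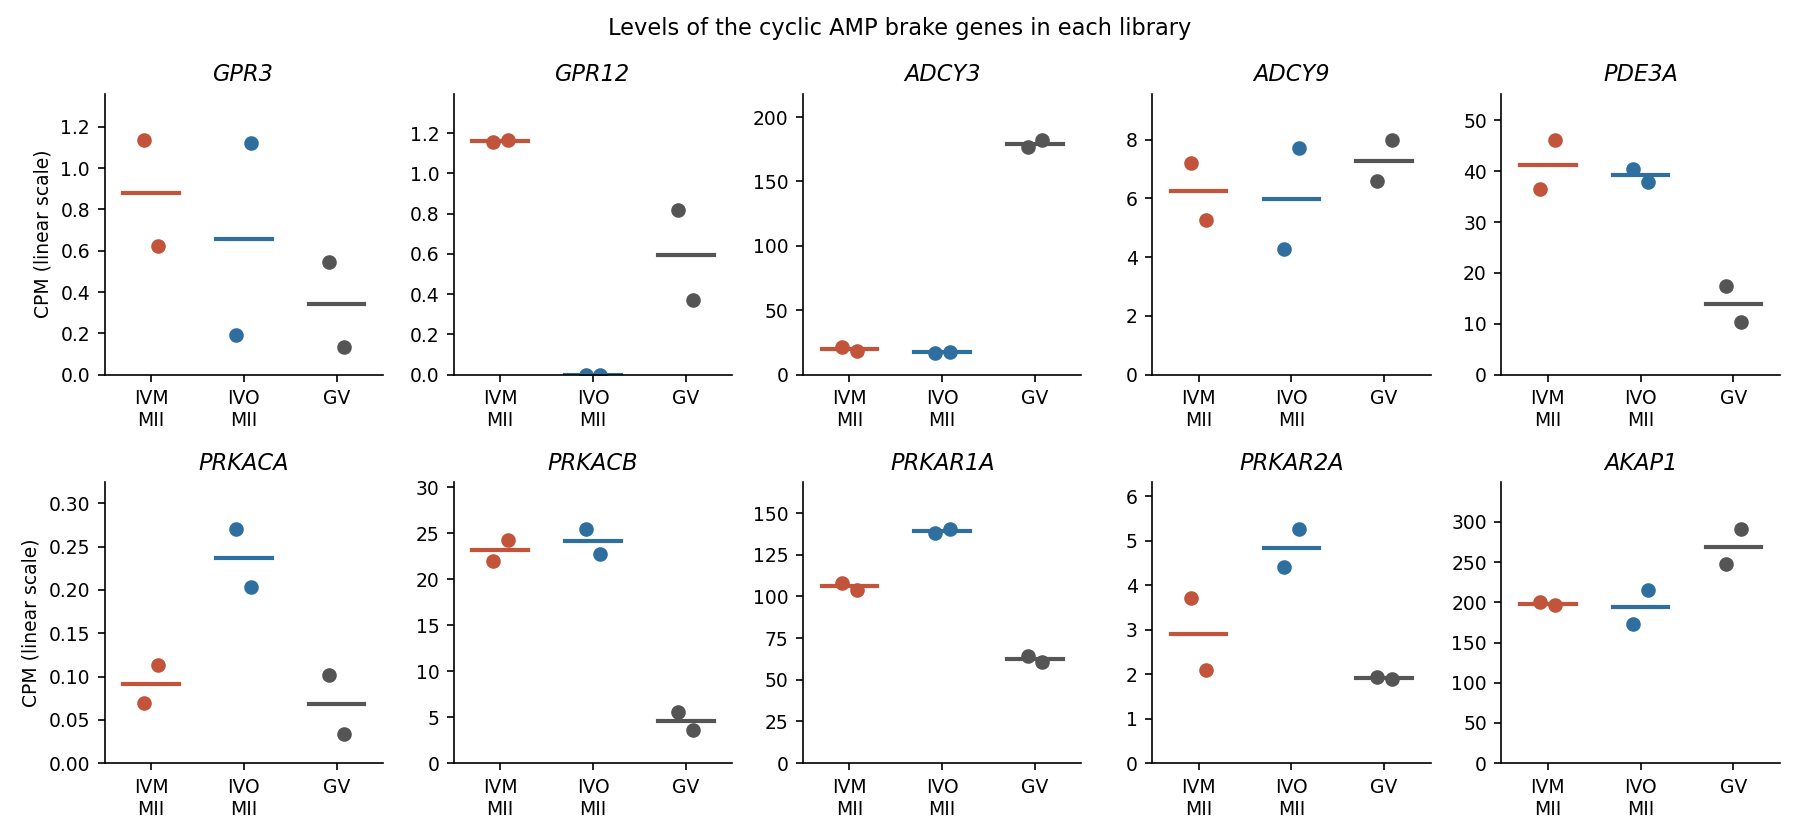
TMM-scaled CPM (linear axis) of the 10 cyclic AMP brake genes, 1 panel a gene, with 1 point per library and a line at the mean of 2 libraries for IVM MII, IVO MII and GV. ADCY3 stands at 176 and 182 in GV, far above both MII groups, PDE3A and PRKACB stand higher in both MII groups than in GV, and GPR12 lies at 0 in both IVO MII libraries.

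The receptors and PRKACA had the lowest levels of the 10 genes per kb of exon. GPR3, an orphan receptor that signals through the stimulatory G protein without a known ligand and that maintains meiotic arrest in mouse oocytes, lies at chr1:200846436-200849611 on the minus strand of the macFas5 genome, in 2 exons. It was at 1.13 and 0.625 CPM in IVM MII, 0.193 and 1.12 CPM in IVO MII, and 0.545 and 0.135 CPM in GV, from 4 to 49 counts a library. The IVM MII libraries lay above both GV libraries, while the IVO MII libraries overlapped both other groups. No call was made: the log2 fold change was 1.37 ± 0.82 (SE) in IVM MII against GV (95% interval -0.42 to 3.16, edgeR adjusted p = 0.182), 0.96 ± 0.85 in IVO MII against GV (-0.88 to 2.81, adjusted p = 0.345) and 0.41 ± 0.77 in IVM MII against IVO MII (-1.28 to 2.09, adjusted p = 0.731). The intervals are wide, and the value in IVO MII against GV was -0.79 without IVO MII replicate 2.

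GPR12 is a close relative of GPR3 with the same coupling, and it maintains meiotic arrest in rat oocytes. It lies at chr17:6612972-6618580 on the minus strand, in 2 exons. It was at 1.16 and 1.16 CPM in IVM MII, at 0 and 0 CPM in IVO MII, and at 0.817 and 0.372 CPM in GV, from 50 and 41 counts, 0 and 0 counts, and 24 and 11 counts. GPR12 was thus the one gene of the 10 without a count in a group, and it passed the filter through the other groups, which both lay above IVO MII. The floor was 3 counts per library (0.102 to 0.116 CPM in the IVO MII libraries). Mean GPR12 was 5.46 times the mean of that floor in GV and 10.7 times in IVM MII. The edgeR fit used the counts without the floor. It called GPR12 lower in IVO MII than in GV (edgeR adjusted p = 9.38e-04) and higher in IVM MII than in IVO MII (adjusted p = 0.00110). Across the alternatives the adjusted p ran from 2.84e-05 to 0.00510 in IVO MII against GV and from 3.51e-06 to 0.00863 in IVM MII against IVO MII. Between IVM MII and GV the log2 fold change was 0.96 ± 0.58 (-0.32 to 2.25, adjusted p = 0.190). Of the 9 tested cumulus and granulosa markers, 3 were higher and 0 lower in IVM MII than in IVO MII. Among the 3 was GREM1, a cumulus product, at 32.8 and 25.3 CPM in IVM MII against 4.83 and 3.19 CPM in IVO MII (edgeR adjusted p = 1.97e-04). Untested markers of that list went the other way at low counts. INHBA had 0 and 0 counts in IVM MII against 7 and 3 in IVO MII, and HSD3B2 0 and 0 against 5 and 4. Of the 19 measured, 11 had 0 counts in each IVM MII library, against 6 and 8 in IVO MII. The part of such markers in the GPR12 difference was not tested.

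The adenylyl cyclases make cyclic AMP. ADCY3, a membrane cyclase found in oocytes of mouse and rat, showed the widest difference from GV of the 8 genes that had counts in every group and were tested. It lies at chr13:86001639-86117392 on the plus strand, in 22 exon blocks of 4813 bases. ADCY3 was at 21.3 and 18.2 CPM in IVM MII, 16.9 and 17.6 CPM in IVO MII, and 176 and 182 CPM in GV. Both MII groups lay far below GV, and the IVM MII libraries lay just above the IVO MII libraries. ADCY3 fell by 3.18 ± 0.22 on the log2 scale in IVM MII against GV, 9.08-fold (95% interval -3.67 to -2.69, edgeR adjusted p = 1.81e-06), and by 3.38 ± 0.23 in IVO MII against GV, 10.4-fold (-3.87 to -2.88, adjusted p = 9.23e-07). In IVM MII against IVO MII the log2 fold change was 0.19 ± 0.21 (-0.27 to 0.65, adjusted p = 0.535).

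Of the exon bases of ADCY3, 1509 (31.4%) also belong to CENPO, a centromere protein gene on the opposite strand, and the counting recorded in the file header used no strand option. CENPO averaged 49.9 CPM in IVM MII, 42.0 CPM in IVO MII and 120.5 CPM in GV. It too fell against GV, by 1.27 in IVM MII (edgeR adjusted p = 6.85e-04) and by 1.52 in IVO MII (adjusted p = 1.38e-04) on the log2 scale. Reads of the shared bases cannot be told apart between these genes. The theca, stroma and endothelium markers also summed highest in GV. VWF, an endothelial marker that gave most of that sum in GV, was at 105 and 102 CPM in IVM MII, 41.8 and 46.0 CPM in IVO MII and 288 and 337 CPM in GV. PECAM1, another endothelial marker, went the other way, at 19.2 and 19.7, 17.7 and 13.5, and 11.1 and 7.54 CPM in the same order. Of the 6 markers of that list tested, 1 was higher and 2 were lower in each MII group than in GV. The part of VWF and the other markers in the ADCY3 difference was not tested.

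ADCY9, a widely expressed cyclase, lies at chr20:4239344-4289600 on the minus strand. It was at 7.20 and 5.28 CPM in IVM MII, 4.29 and 7.71 CPM in IVO MII, and 6.60 and 7.98 CPM in GV, so all 3 groups overlapped. The log2 fold change was -0.22 ± 0.33 in IVM MII against GV (-0.95 to 0.51, edgeR adjusted p = 0.600), -0.28 ± 0.34 in IVO MII against GV (-1.01 to 0.46, adjusted p = 0.496) and 0.06 ± 0.34 in IVM MII against IVO MII (-0.68 to 0.79, adjusted p = 0.920). The cyclases therefore moved unequally: ADCY3 fell in both MII groups, and ADCY9 was not called in either.

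Levels were also set per kilobase of annotated exon, from 1.409 kb for PRKACA to 9.152 kb for PDE3A among the 10 brake genes. Comparisons between genes on this scale depend on how complete the annotated exons are, which was not tested. The 10 adenylyl cyclase genes summed to 14.6 and 13.5 CPM per kb in IVM MII, 13.7 and 16.0 CPM per kb in IVO MII, and 43.1 and 44.6 CPM per kb in GV. ADCY3 made up 29.2% of that sum in IVM MII, 24.3% in IVO MII and 84.9% in GV (means of 2 libraries). ADCY7, another cyclase, made up 40.2%, 52.3% and 6.86% in the same order of groups. ADCY7 was at 39.8 and 39.5 CPM in IVM MII, 50.0 and 59.4 CPM in IVO MII, and 22.6 and 19.7 CPM in GV. It rose by 0.91 ± 0.22 on the log2 scale in IVM MII against GV (edgeR adjusted p = 0.00501) and by 1.37 ± 0.22 in IVO MII against GV (adjusted p = 2.75e-04), and it was named after its values were seen because it replaced ADCY3 as the leading cyclase. ADCY9 made up 5.41%, 4.87% and 2.03%.

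**Figure D2:**
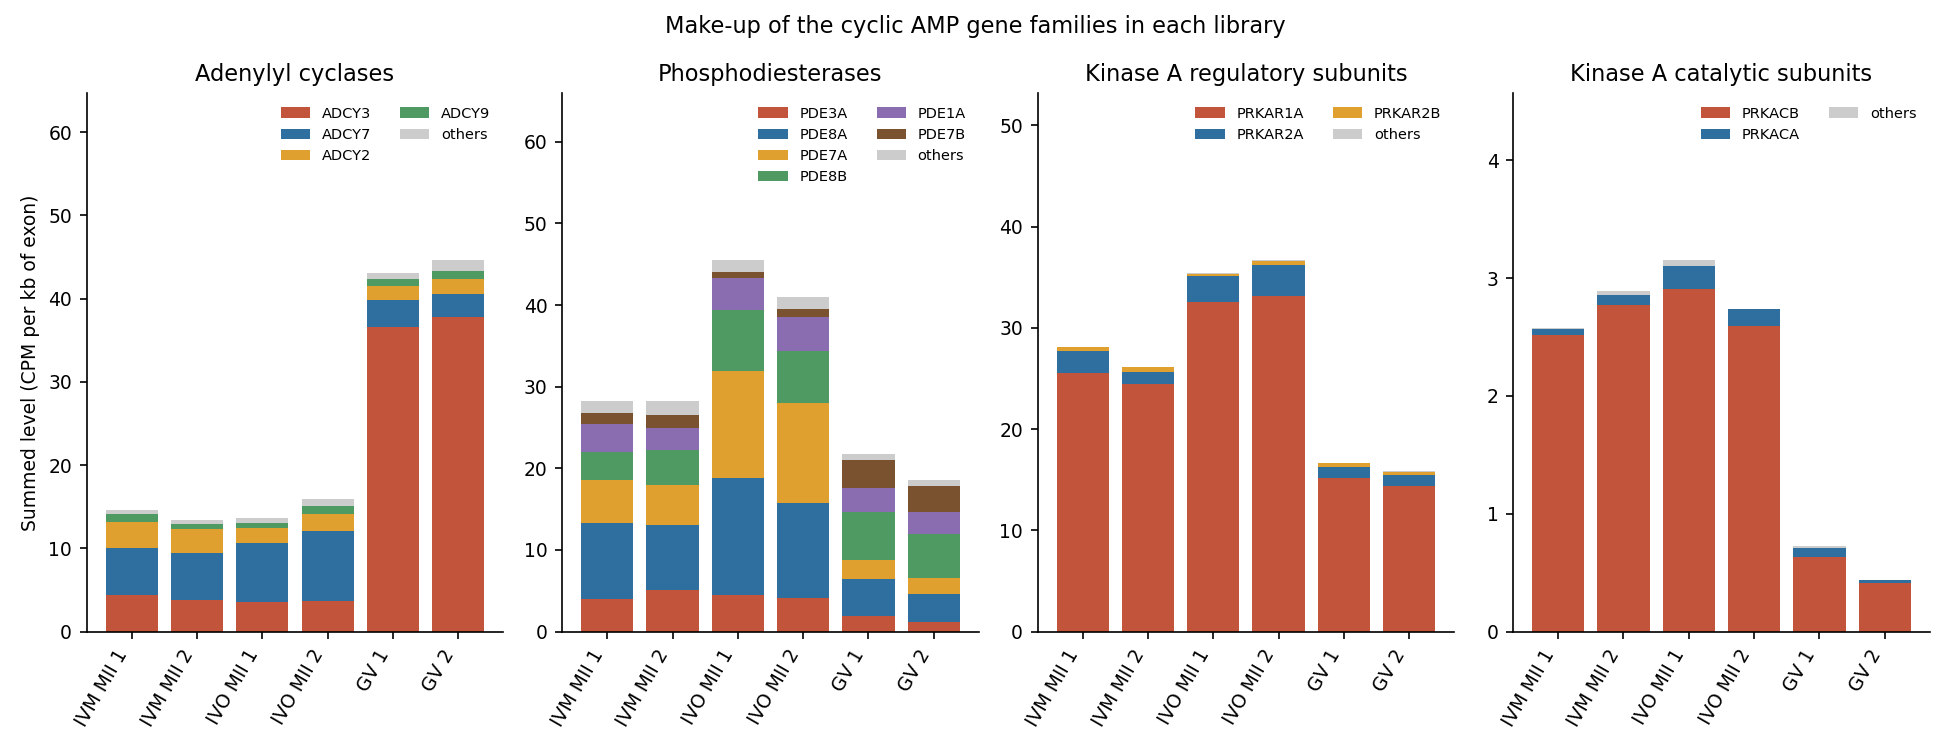
Summed level in CPM per kb of exon of the adenylyl cyclases, the cyclic AMP and dual phosphodiesterases, the kinase A regulatory subunits and the kinase A catalytic subunits, stacked by gene, 1 bar per library in the order IVM MII, IVO MII and GV. The cyclase bars are tallest in GV, where ADCY3 fills most of them, and the catalytic subunit bars, filled mainly by PRKACB, are tallest in the MII libraries.

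PDE3A hydrolyses cyclic AMP and is the enzyme whose release from inhibition starts meiotic resumption; mouse oocytes without it do not resume meiosis. It lies at chr11:21137148-21454810 on the plus strand, in 19 exon blocks. PDE3A was at 36.4 and 46.1 CPM in IVM MII, 40.5 and 37.9 CPM in IVO MII, and 17.4 and 10.4 CPM in GV. Both MII groups lay above both GV libraries and overlapped each other. PDE3A rose by 1.57 ± 0.27 on the log2 scale in IVM MII against GV, 2.97-fold (0.97 to 2.17, edgeR adjusted p = 7.36e-04), and by 1.50 ± 0.27 in IVO MII against GV, 2.82-fold (0.90 to 2.09, adjusted p = 6.46e-04). In IVM MII against IVO MII the log2 fold change was 0.07 ± 0.27, with a 95% interval of -0.51 to 0.65 (adjusted p = 0.865).

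The ADCY3 level per kb was 1.11 and 0.749 times the PDE3A level in the IVM MII libraries, 0.793 and 0.882 times in the IVO MII libraries, and 19.3 and 33.2 times in the GV libraries. The cyclase transcript thus stood far above the phosphodiesterase transcript in GV oocytes and near it in both kinds of MII oocyte. Over whole families, the summed cyclases were 0.516 and 0.477 times the 16 summed phosphodiesterases that act on cyclic AMP in IVM MII, 0.301 and 0.389 times in IVO MII, and 1.98 and 2.39 times in GV. These ratios were computed from the levels above and were not tested.

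PDE3A made up 16.0% of the summed phosphodiesterase level per kb in IVM MII, 9.92% in IVO MII and 7.40% in GV, and it was not the leading gene of the family in any group. PDE8A, a cyclic AMP phosphodiesterase with high affinity for its substrate, made up 30.7%, 29.9% and 19.8% in the same order. PDE8A rose by 1.11 ± 0.24 in IVM MII against GV (edgeR adjusted p = 0.00263) and by 1.69 ± 0.24 in IVO MII against GV (adjusted p = 1.26e-04) on the log2 scale, and it was named after its values were seen. Of the 13 phosphodiesterase genes tested, PDE3A included, 8 were higher and 1 was lower in IVM MII than in GV, 6 were higher and 1 was lower in IVO MII than in GV, and 3 were higher and 2 lower in IVM MII than in IVO MII. That was 69.2%, 53.8% and 38.5% of the 13, beside 50.3%, 58.5% and 24.6% of all tested genes. The median log2 fold changes were 1.11, 1.50 and 0.07, beside 0.06, -0.07 and 0.02 for all tested genes. PDE2A and PDE4C had no count in any library.

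PDE7A, which is specific for cyclic AMP, differed between the maturation routes. It was at 42.0 and 37.7 CPM in IVM MII, 102 and 96.1 CPM in IVO MII, and 17.6 and 14.9 CPM in GV, with no overlap between groups. It rose by 2.61 ± 0.23 on the log2 scale in IVO MII against GV (edgeR adjusted p = 4.40e-06) and was 2.48-fold lower in IVM MII than in IVO MII (log2 fold change -1.31 ± 0.22, adjusted p = 0.00134). PDE9A, which acts on cyclic GMP, was at 77.4 and 56.6 CPM in IVM MII against 15.1 and 13.2 CPM in GV, a rise of 2.24 ± 0.24 (adjusted p = 2.91e-05).

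PDE7B moved the other way. It was at 10.2 and 11.1 CPM in IVM MII, 4.75 and 6.59 CPM in IVO MII, and 24.9 and 23.4 CPM in GV. It fell by 1.18 ± 0.26 on the log2 scale in IVM MII against GV (edgeR adjusted p = 0.00275) and by 2.09 ± 0.27 in IVO MII against GV (adjusted p = 6.06e-05). It was higher in IVM MII than in IVO MII by 0.91 ± 0.26 (adjusted p = 0.0258). That last call ended without IVM MII replicate 1 (1.00, adjusted p = 0.0586), without IVM MII replicate 2 (0.85, adjusted p = 0.111) and without IVO MII replicate 1 (0.69, adjusted p = 0.149).

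Protein kinase A is a tetramer of catalytic and regulatory subunits, and cyclic AMP frees the catalytic ones. PRKACB, the beta catalytic subunit, lies at chr1:143012121-143177501 on the minus strand, in 17 exon blocks. It was at 22.0 and 24.3 CPM in IVM MII, 25.5 and 22.7 CPM in IVO MII, and 5.55 and 3.62 CPM in GV. Both MII groups lay above GV and overlapped each other. PRKACB rose by 2.33 ± 0.28 on the log2 scale in IVM MII against GV, 5.04-fold (1.73 to 2.94, edgeR adjusted p = 5.90e-05), and by 2.39 ± 0.28 in IVO MII against GV, 5.25-fold (1.79 to 3.00, adjusted p = 3.30e-05). In IVM MII against IVO MII the log2 fold change was -0.06 ± 0.26 (-0.62 to 0.51, adjusted p = 0.890).

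PRKACA, the alpha catalytic subunit, lies at chr19:14445765-14473414 on the minus strand. It had 3 and 4 counts in IVM MII, 7 and 6 counts in IVO MII, and 3 and 1 counts in GV, which is 0.0338 to 0.270 CPM and close to the floor of 3 counts in every library. It was left out by the filter, and without the filter no comparison was called (edgeR adjusted p = 0.852, 0.315 and 0.527 for IVM MII against GV, IVO MII against GV and IVM MII against IVO MII). No fold change is given at these counts. A transcript this low and an incomplete annotation of PRKACA cannot be told apart here. PRKACB accordingly made up 96.7% of the summed catalytic subunit level per kb in IVM MII, 93.5% in IVO MII and 90.8% in GV.

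PRKAR1A, the type I alpha regulatory subunit, lies at chr16:65674422-65695327 on the plus strand, in 13 exon blocks. It was at 108 and 104 CPM in IVM MII, 138 and 141 CPM in IVO MII, and 64.3 and 60.9 CPM in GV. The groups did not overlap, with IVO MII highest and GV lowest. PRKAR1A rose by 0.76 ± 0.20 on the log2 scale in IVM MII against GV, 1.69-fold (0.31 to 1.21, edgeR adjusted p = 0.00896), and by 1.15 ± 0.21 in IVO MII against GV, 2.23-fold (0.71 to 1.60, adjusted p = 5.36e-04). The first of these calls ended without GV replicate 2 (0.73, adjusted p = 0.0613). Between IVM MII and IVO MII the log2 fold change was -0.39 ± 0.20 (-0.84 to 0.05, adjusted p = 0.176), and the non-overlapping values did not pass the test.

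PRKAR2A, the type II alpha regulatory subunit, lies at chr2:103879431-103988892 on the minus strand. It was at 3.70 and 2.10 CPM in IVM MII, 4.40 and 5.26 CPM in IVO MII, and 1.94 and 1.89 CPM in GV. The order of the groups was the same as for PRKAR1A, again without overlap, and the IVM MII libraries lay furthest apart. PRKAR2A rose by 1.33 ± 0.38 on the log2 scale in IVO MII against GV, 2.52-fold (0.51 to 2.15, edgeR adjusted p = 0.00937), a call that ended without GV replicate 2 (1.32, adjusted p = 0.0537). The log2 fold change was 0.60 ± 0.37 in IVM MII against GV (-0.21 to 1.42, adjusted p = 0.197) and -0.73 ± 0.36 in IVM MII against IVO MII (-1.53 to 0.06, adjusted p = 0.163). PRKAR1A made up 92.2% of the summed regulatory subunit level per kb in IVM MII, 91.2% in IVO MII and 90.7% in GV, and PRKAR2A 6.14%, 7.76% and 6.83%.

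The summed regulatory subunits stood at 10.9 and 9.05 times the summed catalytic subunits per kb in IVM MII, 11.3 and 13.4 times in IVO MII, and 22.9 and 36.3 times in GV. The ratio was lower in every MII library than in either GV library, and it was not tested. Nearly all of the catalytic sum was PRKACB, so the ratio depends on how complete the annotation of PRKACA is. Of the 11 kinase A subunit and inhibitor genes, 5 were tested: 2 were higher and 1 was lower in IVM MII than in GV, 3 were higher and 1 was lower in IVO MII than in GV, and 0 were called in IVM MII against IVO MII, where 0 of the 5 had an unadjusted p under 0.05 in edgeR (the lowest was 0.0677, for PRKAR2A) and DESeq2 called 0 of PRKACB, PRKAR1A and PRKAR2A. The gene that fell was PKIG, an inhibitor of the catalytic subunit, at 1.32 and 0.710 CPM in IVM MII, 1.43 and 1.46 CPM in IVO MII, and 5.72 and 7.27 CPM in GV. PKIG fell by 2.66 ± 0.40 on the log2 scale in IVM MII against GV (adjusted p = 2.78e-04) and by 2.16 ± 0.39 in IVO MII against GV (adjusted p = 6.36e-04), and it was named after its values were seen. PKIA, a related inhibitor, had no count in any library.

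**Figure D3:**
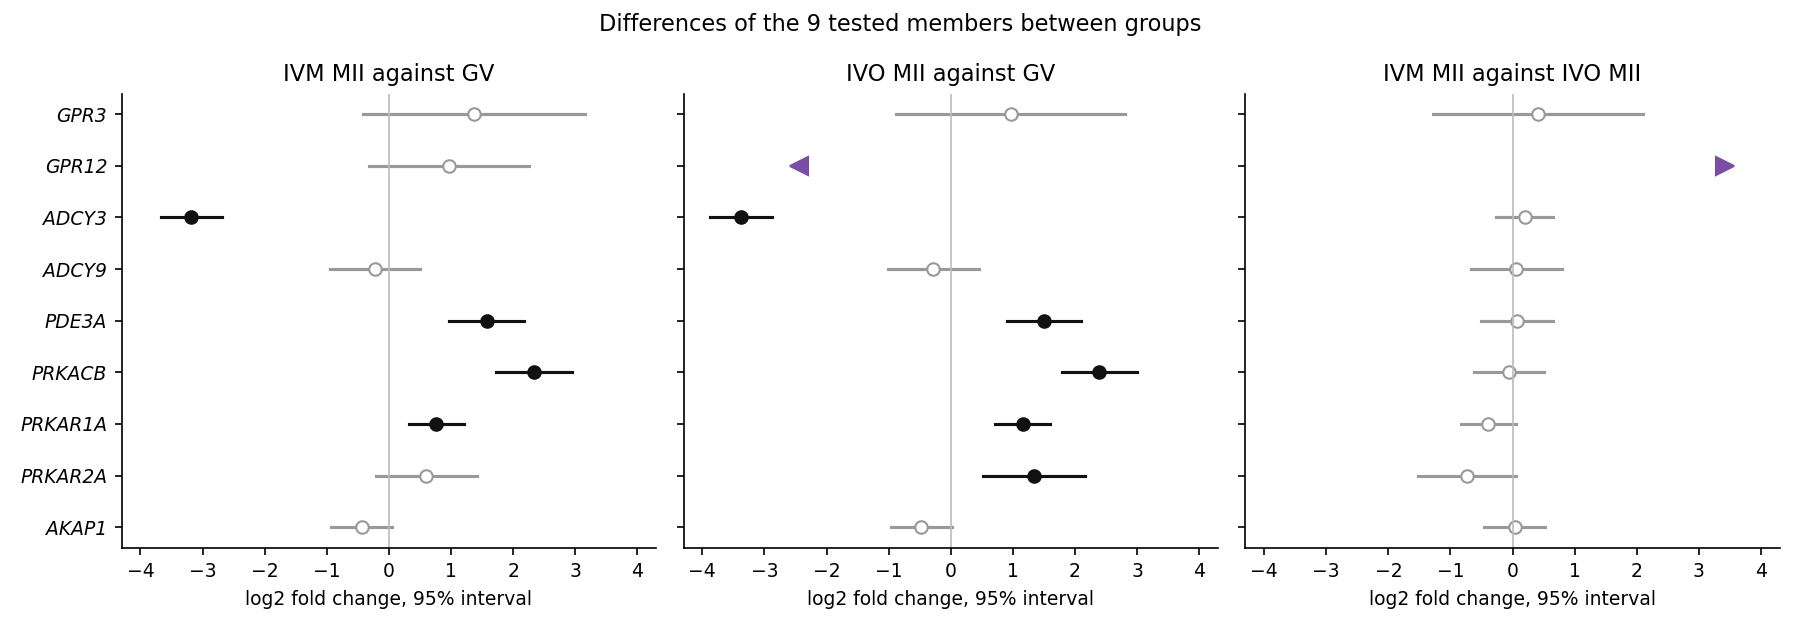
Log2 fold change of the 9 tested genes with its 95% interval (bars), in panels for IVM MII against GV, IVO MII against GV and IVM MII against IVO MII. Filled points passed an adjusted p of 0.05, open points did not, and triangles mark GPR12 with IVO MII set at the floor, where it had 0 counts. PRKACB and PDE3A lie to the right and ADCY3 far to the left against GV. Between IVM MII and IVO MII every interval drawn crosses 0, and GPR12 is shown as a triangle without an interval.

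AKAP1 tethers kinase A to the outer membrane of mitochondria. It lies at chr16:42582157-42628080 on the plus strand, in 17 exon blocks. It was at 200.0 and 197 CPM in IVM MII, 173 and 216 CPM in IVO MII, and 247 and 291 CPM in GV. Both MII groups lay below GV and overlapped each other. The differences did not pass the test: the log2 fold change was -0.44 ± 0.22 in IVM MII against GV (-0.93 to 0.04, edgeR adjusted p = 0.117), -0.47 ± 0.22 in IVO MII against GV (-0.96 to 0.01, adjusted p = 0.0864) and 0.03 ± 0.22 in IVM MII against IVO MII (-0.45 to 0.52, adjusted p = 0.933). With the trend on gene length removed, both differences from GV were called, at -0.71 (adjusted p = 0.0209) in IVM MII and -0.79 (adjusted p = 0.0110) in IVO MII.

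Of the 14 anchoring proteins tested, AKAP1 included, 6 were higher and 1 was lower in IVM MII than in GV, 8 were higher and 1 was lower in IVO MII than in GV, and 3 were higher and 1 was lower in IVM MII than in IVO MII, with median log2 fold changes of 0.79, 1.05 and -0.20. The share called was 50.0%, 64.3% and 28.6%, near the 50.3%, 58.5% and 24.6% of all tested genes. AKAP1 made up 29.3% of the summed level per kb of 16 anchoring proteins in IVM MII, 26.1% in IVO MII and 51.6% in GV. SPHKAP, which binds type I kinase A, was at 107 and 96.9 CPM in IVM MII against 29.1 and 31.8 CPM in GV, a rise of 1.74 ± 0.22 on the log2 scale (edgeR adjusted p = 8.69e-05).

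AKAP2 and AKAP9 differed between the maturation routes. AKAP2 was at 107 and 107 CPM in IVM MII, 29.4 and 53.4 CPM in IVO MII, and 38.4 and 55.3 CPM in GV. It was higher in IVM MII than in IVO MII by 1.37 ± 0.29 on the log2 scale (edgeR adjusted p = 0.00614). AKAP9, a scaffold of the centrosome and Golgi, was at 52.6 and 62.1 CPM in IVM MII, 102 and 95.3 CPM in IVO MII, and 30.8 and 31.3 CPM in GV. AKAP9 rose by 1.67 ± 0.21 in IVO MII against GV (adjusted p = 6.29e-05), and it was lower in IVM MII than in IVO MII (log2 fold change -0.78 ± 0.21, adjusted p = 0.0184). The difference between the routes was not called when scaled by library totals (-0.57, adjusted p = 0.0647) or without IVM MII replicate 1 (-0.64, adjusted p = 0.141), IVM MII replicate 2 (-0.91, adjusted p = 0.0583) or IVO MII replicate 1 (-0.73, adjusted p = 0.0724).

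Within each group the 10 genes kept a wide order of levels. In IVM MII, AKAP1 stood highest at 28.8 ± 0.334 CPM per kb (SD, n = 2, here and below), followed by PRKAR1A at 25.0 ± 0.788, PDE3A at 4.51 ± 0.745 and ADCY3 at 4.09 ± 0.458 CPM per kb, where PDE3A and ADCY3 overlapped. PRKACB at 2.64 ± 0.182, PRKAR2A at 1.68 ± 0.656, ADCY9 at 0.762 ± 0.165, GPR3 at 0.412 ± 0.169, GPR12 at 0.239 and PRKACA at 0.0650 CPM per kb came below. In IVO MII, PRKAR1A led at 32.9 ± 0.419 CPM per kb, with AKAP1 at 28.2 ± 4.41, PDE3A at 4.28 ± 0.198, ADCY3 at 3.58 ± 0.104, PRKAR2A at 2.80 ± 0.352 and PRKACB at 2.75 ± 0.222, the last pair overlapping. ADCY9 at 0.733 ± 0.295, GPR3 at 0.308 ± 0.308 and PRKACA at 0.168 followed, GPR3 overlapping its neighbours on both sides, and GPR12 was at 0. In GV, AKAP1 at 39.2 ± 4.53 and ADCY3 at 37.2 ± 0.808 CPM per kb overlapped at the top, above PRKAR1A at 14.8 ± 0.563, PDE3A at 1.52 ± 0.537, PRKAR2A at 1.11 ± 0.0192, ADCY9 at 0.891 ± 0.119 and PRKACB at 0.524 ± 0.156. GPR3 at 0.159 ± 0.136 and GPR12 at 0.122 ± 0.0647 overlapped at the low end, and PRKACA at 0.0482 overlapped GPR3 and lay below GPR12.

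Set against all tested genes by level per kb, ADCY3 stood above 58.5% of them in IVO MII and above 88.6% in GV. PDE3A stood above 61.4% in IVM MII, 61.3% in IVO MII and 42.3% in GV. PRKACB stood above 53.0%, 54.8% and 24.6% in the same order. AKAP1 stood above 86.7%, 86.7% and 89.0%, so that it kept its place near the top while ADCY3 left it.

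The wider pathway was described by lists of named genes. Among 19 tested receptors, G proteins and cyclases, members included, 5 were higher and 2 lower in IVM MII than in GV, 8 were higher and 5 lower in IVO MII than in GV, and 2 were higher and 3 lower in IVM MII than in IVO MII, with medians of 0.64, 0.96 and 0.06. Called genes made up 36.8%, 68.4% and 26.3% of the 19, beside 50.3%, 58.5% and 24.6% of all tested genes. GNAS, the stimulatory G protein alpha subunit through which GPR3 and GPR12 act, was at 20.6 and 16.0 CPM in IVM MII, 11.8 and 15.5 CPM in IVO MII, and 14.8 and 16.9 CPM in GV. It was not called in any comparison (log2 fold changes 0.21, -0.22 and 0.42) and was named after its values were seen. GNAI1, an inhibitory alpha subunit, was at 193 and 165 CPM in IVM MII, 249 and 282 CPM in IVO MII, and 61.2 and 59.1 CPM in GV. GNAI1 rose by 1.57 ± 0.22 in IVM MII against GV (edgeR adjusted p = 1.63e-04) and by 2.14 ± 0.22 in IVO MII against GV (adjusted p = 1.54e-05). GNAI3, another inhibitory alpha subunit, was at 39.9 and 36.0 CPM in IVO MII against 77.5 and 82.2 CPM in GV, a fall of 1.07 ± 0.22 on the log2 scale (adjusted p = 0.00122). The inhibitory subunits therefore did not move as 1 group.

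**Figure D4:**
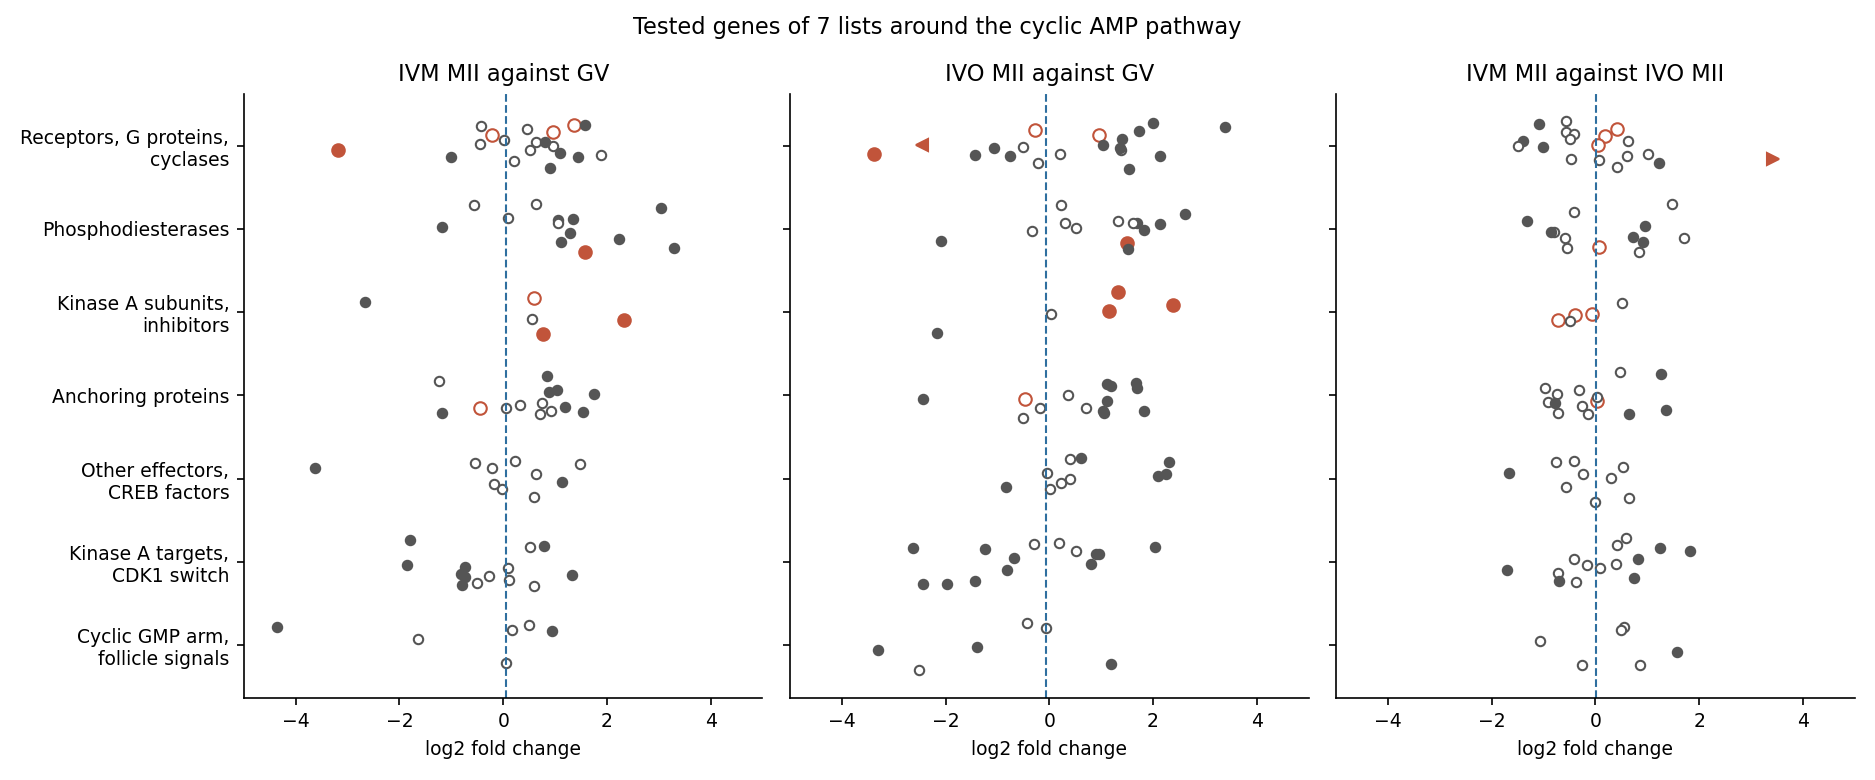
Log2 fold change (horizontal axis) of every tested gene in 7 lists around the pathway, in panels for IVM MII against GV, IVO MII against GV and IVM MII against IVO MII. Red marks the 9 tested brake genes, filled points passed an adjusted p of 0.05, triangles mark GPR12 with IVO MII set at the floor, and the dashed line is the median of all tested genes. Phosphodiesterases and anchoring proteins lie mostly right of the line against GV, and the kinase A targets lie on both sides.

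Other G protein genes differed between the maturation routes. GNAZ, an alpha subunit of the inhibitory family, was at 9.86 and 10.5 CPM in IVM MII against 4.29 and 4.45 CPM in IVO MII, higher by 1.22 ± 0.27 on the log2 scale (edgeR adjusted p = 0.00722). RIC8B, which assists the folding of stimulatory alpha subunits, was at 8.38 and 8.41 CPM in IVM MII, 23.8 and 20.3 CPM in IVO MII, and 8.82 and 7.88 CPM in GV. The IVM MII libraries lay within the range of the GV libraries, and RIC8B was lower in IVM MII than in IVO MII (log2 fold change -1.40 ± 0.25, adjusted p = 0.00206).

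Among 10 tested effectors of cyclic AMP and factors of the CREB family, 1 was higher and 1 lower in IVM MII than in GV, 4 were higher and 1 lower in IVO MII than in GV, and 0 were higher and 2 lower in IVM MII than in IVO MII, with medians of 0.10, 0.40 and -0.33. At 20.0%, 50.0% and 20.0%, the share called lay below the 50.3%, 58.5% and 24.6% of all tested genes. CREM, a transcription factor that kinase A phosphorylates, was at 62.0 and 70.6 CPM in IVM MII against 28.0 and 32.3 CPM in GV, a rise of 1.14 ± 0.23 on the log2 scale (edgeR adjusted p = 0.00179). ATF1, a factor of the same family, was at 10.5 and 13.1 CPM in IVM MII, 33.0 and 41.7 CPM in IVO MII, and 8.95 and 6.19 CPM in GV. ATF1 rose by 2.30 ± 0.28 in IVO MII against GV (adjusted p = 4.30e-05) and was 3.17-fold lower in IVM MII than in IVO MII (log2 fold change -1.66 ± 0.27, adjusted p = 0.00127). CRTC3, a coactivator of these factors, fell by 0.84 ± 0.30 in IVO MII against GV (adjusted p = 0.0278), a call that ended under library totals (-0.76, adjusted p = 0.0827), without GV replicate 1 (-0.84, adjusted p = 0.0816), without GV replicate 2 (-0.84, adjusted p = 0.0857) and without IVO MII replicate 1 (-0.60, adjusted p = 0.155).

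The kinase A targets and the CDK1 switch lie downstream of the brake. Of 14 tested, 2 were higher and 6 lower in IVM MII than in GV, 4 were higher and 7 lower in IVO MII than in GV, and 4 were higher and 2 lower in IVM MII than in IVO MII, with medians of -0.39, -0.50 and 0.24. Those calls covered 57.1%, 78.6% and 42.9% of the 14, beside 50.3%, 58.5% and 24.6% of all tested genes. CDC25B, the phosphatase that kinase A restrains in mouse oocytes, is named for that role. It was at 8.93 and 3.55 CPM in IVM MII, 2.67 and 5.64 CPM in IVO MII, and 22.8 and 22.6 CPM in GV. CDC25B fell by 1.86 ± 0.43 on the log2 scale in IVM MII against GV (edgeR adjusted p = 0.00375; -2.64 without IVM MII replicate 1) and by 2.44 ± 0.44 in IVO MII against GV (adjusted p = 5.83e-04; -3.07 without IVO MII replicate 2). CDC25A, a related phosphatase, was at 41.4 and 38.8 CPM in IVM MII, 83.6 and 48.6 CPM in IVO MII, and 18.7 and 13.5 CPM in GV. It rose by 1.32 ± 0.28 in IVM MII against GV (adjusted p = 0.00261) and by 2.04 ± 0.29 in IVO MII against GV (adjusted p = 1.20e-04), so CDC25A and CDC25B moved in opposite directions. CDC25C, also of this family, lay on the side of CDC25B, averaging 82.9 CPM in IVM MII, 49.7 CPM in IVO MII and 118 CPM in GV. PPP2R2D, a regulatory subunit of the phosphatase that opposes CDK1, was at 8.24 and 8.12 CPM in IVM MII against 27.4 and 29.6 CPM in GV, a fall of 1.80 ± 0.24 (adjusted p = 1.26e-04).

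WEE2, the oocyte kinase that inhibits CDK1 and that kinase A activates in mouse oocytes, and CDK1 itself differed between the maturation routes. WEE2 was at 2949 and 3024 CPM in IVM MII, 8630 and 10939 CPM in IVO MII, and 4646 and 5911 CPM in GV. It was 3.28-fold lower in IVM MII than in IVO MII (log2 fold change -1.71 ± 0.29, edgeR adjusted p = 0.00170). Against GV it fell by 0.82 ± 0.29 in IVM MII (adjusted p = 0.0321) and rose by 0.89 ± 0.29 in IVO MII (adjusted p = 0.0190). The call in IVM MII against GV ended under library totals (-0.52, adjusted p = 0.0938), without GV replicate 1 (-0.98, adjusted p = 0.0621), GV replicate 2 (-0.63, adjusted p = 0.232), IVM MII replicate 1 (-0.76, adjusted p = 0.0828), IVM MII replicate 2 (-0.82, adjusted p = 0.0694) or IVO MII replicate 2 (-0.80, adjusted p = 0.0553). The call in IVO MII against GV ended without GV replicate 1 (0.73, adjusted p = 0.163), GV replicate 2 (1.08, adjusted p = 0.0515) or IVO MII replicate 2 (0.72, adjusted p = 0.147). CDK1, the kinase that starts meiotic M phase, was at 74.5 and 103 CPM in IVM MII, 18.2 and 31.8 CPM in IVO MII, and 171 and 138 CPM in GV. CDK1 fell by 2.63 ± 0.30 in IVO MII against GV (adjusted p = 3.00e-05) and was 3.55-fold higher in IVM MII than in IVO MII (log2 fold change 1.83 ± 0.29, adjusted p = 0.00116).

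The cyclic GMP arm, through which the follicle restrains PDE3A, had few genes above the filter. Of its 15 genes 6 were tested: 1 was higher and 1 lower in IVM MII than in GV, 1 was higher and 2 lower in IVO MII than in GV, and 1 was higher in IVM MII than in IVO MII, with medians of 0.11, -0.92 and 0.53. Shares called were 33.3%, 50.0% and 16.7% of the 6, below the 50.3%, 58.5% and 24.6% of all tested genes. EGFR, the receptor that relays the ovulatory signal in follicle cells, and BTC, one of its ligands, had no count in any library.

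The genes most like PDE3A in pattern, by the root mean square difference of log2 CPM centred on each gene's mean over the 6 libraries, were FRYL (0.0652), ETNK1 (0.0943) and MTX3 (0.0983), among 5875 genes searched. For GPR3 the nearest were COMMD10 (0.540), C5AR1 (0.632) and FUT10 (0.642), at a distance several times wider than for PDE3A, whose counts were far higher.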

How the data were processed

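The authors deposited 1 table of raw read counts per gene for 6 libraries. Per the file headers, featureCounts 2.0.1 counted fragments over exons by gene, with no strand option, on the RefSeq annotation of macFas5. The submitters' processing notes also list fastp, FastQC, Bowtie2 and SAMtools, with no roles; Bowtie2 does not align reads across introns. Per the labels' protocols, cDNA was primed on poly(A) tails, so transcript amount and tail length cannot be told apart, and no molecular identifiers are named. GNAS, PKIA and AKAP2, listed by gene number, took their symbols from RefSeq's table for a newer assembly.

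edgeR 4.0.16 in R 4.3.3 kept 15815 genes by filterByExpr and left out 12349. TMM factors (0.902 to 1.22) and a robust quasi-likelihood fit over all 6 libraries followed, with 3 residual degrees of freedom and a biological coefficient of variation of 0.232. SE is the log2 fold change divided by the square root of F. The floor of 3 counts covers counting error only. The sources used here do not say that libraries came from separate animals, so p-values measure the spread between these libraries. The members and lists were chosen with earlier results of these data known. Of each pathway list, the 1 non-member gene per direction and comparison with the lowest adjusted p and at least 10 CPM was named. Other pathway genes given with a fold change are marked. Genes of the oocyte and somatic marker lists were named without this rule. The fit was also run on simulated counts in which a small part of the genes changed, in IVM MII alone. That setting differs from these data, so it cannot show how the fit behaves here. Alternatives were DESeq2 1.42.0, RLE factors, library totals, no filter, a gene length correction, the 4 compared libraries alone, a replicate block and each library left out. The labels give no pairing of libraries by replicate number. Correlations of the replicate differences between groups were -0.144, 0.178 and -0.114. They cannot show whether libraries shared an animal or a batch.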

Additional observations from a re-analysis of the deposited data

Results flagged for a closer look

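The level relative to GV differed between the IVM MII and IVO MII libraries for several of the genes named. The test was that of the difference itself, which is IVM MII against IVO MII in edgeR's quasi-likelihood fit. The maturation route cannot be told apart from differences in animals, hormones or oocyte number, which the labels do not give. Among the brake genes GPR12 alone differed, with 1.16 and 1.16 CPM in IVM MII and 0 in both IVO MII libraries (edgeR adjusted p = 0.00110). GPR12 passed the filter on low counts only through the groups in which it had counts. Its mean in IVM MII was 10.7 times the mean floor of the IVO MII libraries. Higher in IVM MII than in IVO MII were also GNAZ (adjusted p = 0.00722), AKAP2 (adjusted p = 0.00614), CDK1 (adjusted p = 0.00116), PDE7B (adjusted p = 0.0258), PDE9A (adjusted p = 0.0388), SPHKAP (adjusted p = 0.0477), and the somatic markers GREM1 (adjusted p = 1.97e-04) and VWF (adjusted p = 0.00185). Lower in IVM MII than in IVO MII were RIC8B (adjusted p = 0.00206), PDE7A (adjusted p = 0.00134), ATF1 (adjusted p = 0.00127), WEE2 (adjusted p = 0.00170) and AKAP9 (adjusted p = 0.0184). Without single libraries the PDE7B and AKAP9 calls ended, with log2 fold changes from 0.69 to 1.00 for PDE7B and from -0.91 to -0.64 for AKAP9 in the fits that lost them. The PDE9A call ended with RLE factors (0.66), with the gene length trend removed (0.55), and without IVM MII replicate 1 (0.51), IVO MII replicate 1 (0.78) or IVO MII replicate 2 (0.69). The SPHKAP call, 0.64 in the fit as reported, ended with each of the 6 libraries left out (0.51 to 0.79), with RLE factors (0.57), in DESeq2 (0.57) and with the replicate block (0.64, adjusted p = 0.0545). In the same comparison 24.6% of all tested genes were called.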

How the results depend on the processing

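The 9 tested brake genes gave 27 log2 fold changes, recomputed under 13 alternatives. Of these 351 values, 346 kept their side of the threshold and, where called, their direction, 2 lost a call, 3 gained a call, and 0 called values changed sign. PRKAR1A in IVM MII against GV and PRKAR2A in IVO MII against GV lost their calls without GV replicate 2, at 0.73 (adjusted p = 0.0613) and 1.32 (adjusted p = 0.0537). With the gene length trend removed, AKAP1 was called in both MII groups against GV, and PRKAR2A in IVM MII against GV (0.94, adjusted p = 0.0474). The cause was not tested. The other named genes, added to the alternatives after seeing the data, gave 715 values, of which 681 kept their side of the threshold and 34 lost a call.

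Over all genes, the count called in IVM MII against IVO MII, 3895, ran from 2080 to 3576 with 1 library left out (2571 without IVM MII replicate 1, 2080 without IVM MII replicate 2). Under library totals the median over all genes was 0.35, 0.01 and 0.24 in the 3 comparisons, against 0.06, -0.07 and 0.02, and the split of calls was 5276 higher and 3004 lower in IVM MII against GV, against 4053 and 3908, and 2803 higher and 894 lower in IVM MII against IVO MII, against 2260 and 1635. Without the filter the medians were -0.09, -0.23 and 0.00. Under both, every brake gene kept its calls, and no called value changed sign.

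The replicate block gave 7730, 9015 and 3725 calls, against 7961, 9258 and 3895, and changed no call of a brake gene. Depth limits GPR3, GPR12 and PRKACA, which had at most 50 counts a library, and GPR3 values without 1 library ran from 0.70 to 2.68 in IVM MII against GV and from -0.79 to 2.27 in IVO MII against GV.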
